A study of Mus musculus with 9 samples.

Results

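Collagen chain genes were read out in cultures of 4T1, a mouse mammary carcinoma line of epithelial origin. The members are all genes of the count table whose symbol consists of Col, a type number, the letter a and a chain number. This rule took 44 of 24421 genes. The ceramide transfer protein gene Col4a3bp carries a similar symbol, is no collagen and was not taken. Of the 44 chains, 24 had at least 10 counts in at least 3 libraries and are described in full. By class these were 7 of 11 fibrillar chains, 5 of 6 Col4 chains of the basement membrane, 3 of 6 Col6 chains and 9 of 21 others. The study sequenced 9 poly(A) RNA libraries, 3 in each of 3 conditions after 5 days of culture, and asked how the cells respond to growth in 3D and to extra palmitate. In 3D_0, cells formed 3D spheroids on a soft agar base in medium with 10% fetal bovine serum, with the albumin carrier and its ethanol but no palmitate added. In 3D_75, spheroids received 75 µM palmitate bound to albumin. In 2D_75, the same line grew as a 2D monolayer with 75 µM palmitate. All conditions therefore contained serum fatty acids, and 2D culture without added palmitate was not analysed here, so that the effect of 3D growth was read only with palmitate present. The 3 libraries of a condition come from a single cell line, and p-values measure the spread between them, which may be technical.

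Collagens are secreted proteins in which α chains wind around each other in a helix that needs glycine at every repeat. Fibrillar chains such as type I build the cables of connective tissue and are mainly a product of fibroblasts, whereas the type IV network, tied to laminin, forms the sheet beneath epithelia and is made by epithelial cells too. Type VI forms beaded filaments near that sheet from an obligatory set of different chains, type XVIII is a heparan sulfate proteoglycan of basement membranes that releases endostatin, type VII anchors epithelium to the stroma, and type XVII is a transmembrane collagen of hemidesmosomes.

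Depth ranged from 6595514 to 31177756 counts per library. The smallest was replicate 3 of 3D_75. The 45S ribosomal precursor gene Rn45s took 1.77 to 5.38% of counts. The epithelial markers summed to 4515 to 4681 CPM (counts scaled to library size with TMM factors) in the 6 3D libraries and to 3215 to 3436 CPM in 2D. The 11 fibroblast and mural markers summed to 103 to 120 CPM in 3D and 32.3 to 33.6 CPM in 2D. Nearly all of this was the fibroblast marker Pdgfra, a growth factor receptor at 90.6 to 110 CPM in 3D, and Cspg4, a proteoglycan of pericytes. Of the others, Fap and Acta2 reached at most 20 and 18 counts in a library. The remaining 7 never reached 10 counts, Lum and Tcf21 among them with 0 in every library. Endothelial markers summed to at most 1.49 CPM. Immune markers summed to 7.17 to 11.6 CPM in 3D and to 24.6 to 27.9 CPM in 2D, with Adgre1 and Cd3e at 0 throughout. Nearly all of this sum was Cd68, a lysosomal protein gene, whereas the leukocyte gene Ptprc had 17 counts in 3D_75 and 4 in 2D_75. The part of these markers in the collagen differences was not tested. In bulk RNA, fewer cells that express a gene and less RNA per cell cannot be told apart.

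The collagen RNA of these cells was dominated by a few non-fibrillar chains. All 44 chains took 0.396 to 0.432% of all counts in 3D and 0.217 to 0.231% in 2D. Col4a1, Col4a2 and Col18a1 together held 79.3 to 81.0% of the chain counts in 3D and 59.7 to 61.3% in 2D. Col3a1, the partner of type I in soft tissue, had no count in any library, as did Col6a6, Col9a1, Col19a1 and Col25a1, which allows up to 0.0179 CPM over all libraries. Col5a2, Col11a1, Col13a1, Col22a1 and Col26a1 had 1 to 5 counts in all. The 10 remaining chains below the cut were Col4a3, Col5a3, Col6a4, Col6a5, Col8a2, Col9a2, Col14a1, Col15a1, Col23a1 and Col28a1. None of these 10 exceeded 19 counts in a library or 62 counts in all.

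Per kb of transcript, the scale on which different genes can be compared, the order of the leading chains changed with the culture. In 3D_0, Col18a1 led with 252 ± 9.68 CPM per kb (mean ± SD, n = 3). It was followed by Col4a1 with 164 ± 4.72, Col4a2 with 112 ± 1.21 and Col16a1 with 38.6 ± 1.47 CPM per kb. These did not overlap with each other, whereas the next, Col6a1 (27.7 to 30.0) and Col7a1 (24.3 to 27.9), did. In 3D_75 the first 4 places were the same, and Col7a1 (26.1 to 30.5) stood above Col6a1 (19.6 to 22.3 CPM per kb). In 2D_75, Col4a1 led with 86.2 ± 2.81 CPM per kb, ahead of Col18a1 with 71.8 ± 0.542 and Col4a2 with 59.4 ± 4.03. The fourth place there belonged to Col8a1 at 36.7 to 43.0 CPM per kb, which overlapped with Col7a1 at 32.1 to 38.6. Col7a1 in turn overlapped with Col16a1 at 31.4 to 33.3 CPM per kb. Col5a1 was the highest fibrillar chain in every condition, and no other fibrillar chain had a mean above 1 CPM per kb.

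**Figure D1:**
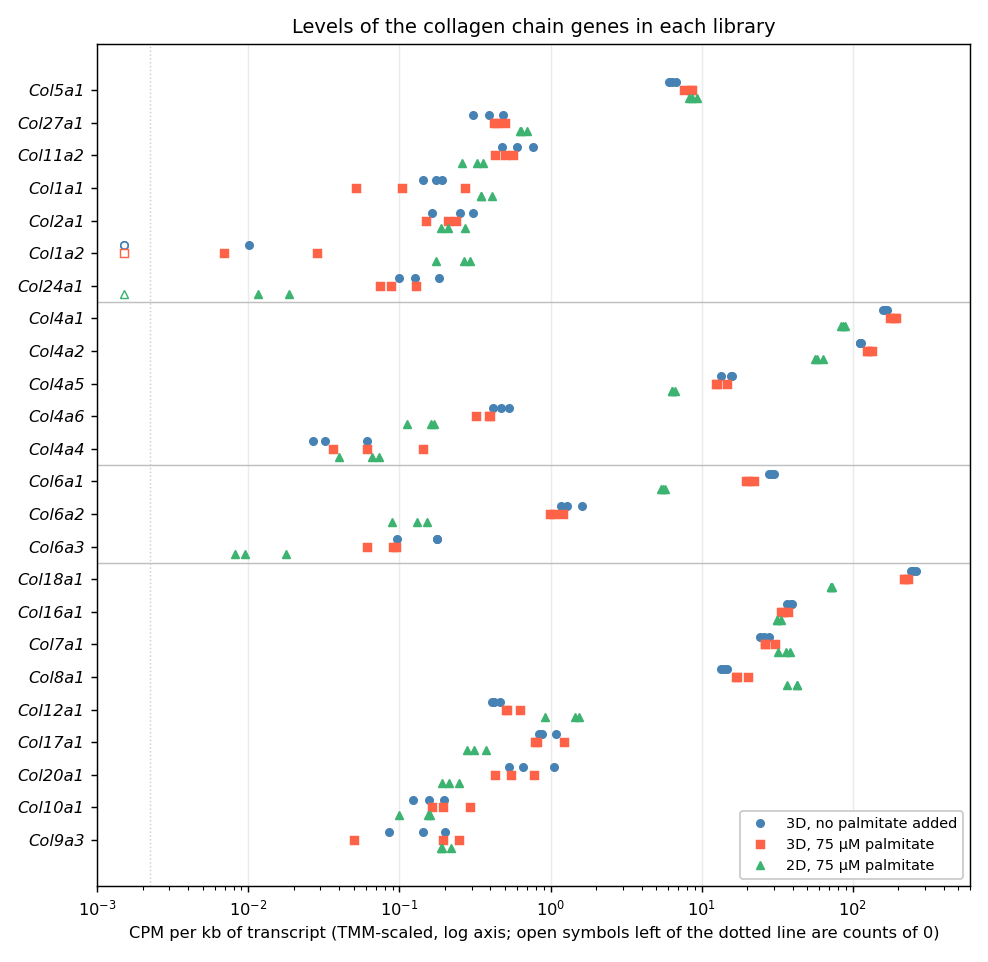
Level of each of the 24 described chains in each of the 9 libraries, in CPM per kb of transcript on a log axis, grouped from top to bottom as fibrillar, Col4, Col6 and other chains. Col18a1, Col4a1 and Col4a2 lie far to the right in all conditions, and the 2D symbols of Col4a1, Col4a2, Col4a5 and the Col6 chains lie left of all 3D symbols.

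The genes differ in build. In the annotation of GRCm38, Col4a1 (chr8:11198423-11312826, minus strand) and Col4a2 (chr8:11312805-11449287, plus strand) lie head to head with start sites 21 bases apart, so that their first bases overlap. Col4a4 and Col4a3 on chr1 are arranged likewise with start sites 72 bases apart, and Col4a5 (chrX:141475385-141689234, plus strand) and Col4a6 (chrX:141165403-141474076, minus strand) with 1309 bases between them. Col6a2 (chr10:76595762-76623630), Col6a1 (chr10:76708792-76726168) and Col18a1 (chr10:77052178-77166548) follow each other on the minus strand of chr10. A helix repeat takes 9 bases, and exons that hold whole repeats have lengths that are multiples of 9. In the described fibrillar genes 76.6 to 90.0% of the inner coding exons were such multiples. The share was 40.0 to 58.1% in the Col4 genes and 46.3 to 72.0% in the Col6 genes, against a median of 11.8% in 7216 other genes with at least 10 coding exons. Col8a1 and Col10a1 have only 2 coding exons and thus no inner one. Described chains had longer transcripts (median 5989 bases, against 3086 in all genes tested) and a higher GC content (56.8% against 50.2%).

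Upstream windows of 250 bases before the start site, from RefSeq on GRCm38.p6, were found for 35 of the 44 chains as 38 windows. The motifs searched on both strands were GGGCGG, the core of Sp1 sites, then CCAAT, then TATAAA, the motif of many focused promoters, and finally TGANTCA, to which AP-1 binds. GGGCGG was present in 57.9% of the collagen windows and in 32.7% of all 32851 windows. CCAAT was found in 34.2% against 33.8%, TATAAA in 13.2% against 12.4% and TGANTCA in 2.63% against 6.75%. The collagen windows also held a median of 9.5 CG pairs, compared with 6 in all windows, and had a median GC content of 59.0% against 52.4%. The windows of 4 chains on which the results turn are printed here because they stand for opposite patterns. Col6a2 (chr10:76623631-76623880, minus strand) and Col6a3 (chr1:90843972-90844221, minus strand) were higher in 3D, Col8a1 (chr16:57754738-57754987, minus strand) was lower in 3D, and Col5a1 (chr2:27886175-27886424, plus strand) was higher with palmitate. None of these windows overlaps an annotated exon. Capitals mark GGGCGG or its reverse complement, the only one of the motifs that was found in them.
Col6a2: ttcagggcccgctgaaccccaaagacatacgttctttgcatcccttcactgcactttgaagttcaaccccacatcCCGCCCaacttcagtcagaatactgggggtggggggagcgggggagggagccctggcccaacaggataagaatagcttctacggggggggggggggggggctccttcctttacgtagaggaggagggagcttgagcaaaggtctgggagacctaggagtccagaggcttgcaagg
Col6a3: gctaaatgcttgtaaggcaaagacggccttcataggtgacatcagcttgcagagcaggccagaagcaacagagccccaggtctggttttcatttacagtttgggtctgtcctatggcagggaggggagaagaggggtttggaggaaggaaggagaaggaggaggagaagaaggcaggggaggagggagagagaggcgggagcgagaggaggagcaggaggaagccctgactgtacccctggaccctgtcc
Col8a1: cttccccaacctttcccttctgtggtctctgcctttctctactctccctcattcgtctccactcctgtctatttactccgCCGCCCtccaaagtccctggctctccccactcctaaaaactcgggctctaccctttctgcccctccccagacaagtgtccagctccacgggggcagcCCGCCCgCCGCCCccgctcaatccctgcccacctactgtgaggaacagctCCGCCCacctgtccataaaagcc
Col5a1: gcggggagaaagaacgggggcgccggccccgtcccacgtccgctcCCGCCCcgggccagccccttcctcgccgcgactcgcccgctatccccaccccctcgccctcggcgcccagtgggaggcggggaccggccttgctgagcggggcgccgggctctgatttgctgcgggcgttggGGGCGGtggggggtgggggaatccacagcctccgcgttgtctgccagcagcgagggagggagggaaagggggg
Col8a1 held 4 copies, Col5a1 2, Col6a2 1 and Col6a3 none (a further window of Col6a2, with 3 copies, overlaps an exon of the gene and is not printed), so the letters were found in windows of chains with either direction. Col5a1 was the richest in CG pairs with 28, against 3 in Col6a3.

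Most chains differed between 3D and 2D, as did most genes, and the Col4 and Col6 classes were higher throughout their called members. Comparing 3D_75 with 2D_75, 12 of the 24 described chains were higher and 6 lower, where 34.5% of all 12575 genes tested were higher and 33.9% lower at an adjusted p under 0.05. The other 6 did not pass. The median log2 fold change was 0.66 over the chains and 0.01 over all genes tested. Of the Col4 chains, 4 of 5 were higher (median 1.11), and of the Col6 chains 3 of 3 (median 2.80, the value of Col6a3). Fibrillar chains split into 2 higher and 3 lower of 7 (median -0.08), and the others into 3 higher and 3 lower of 9 (median 0.14). Chains kept in by the counts of only 1 form of culture were selected towards a difference: Col1a2 through 2D, and Col6a3 and Col24a1 through 3D. For Col6a3 and Col24a1 these counts include those of 3D_0. Col6a2 and Col4a6 each fell under 10 counts in a 2D library (5 and 9 counts), so that they too reached 10 counts in 3 libraries only with their 3D counts. The calls of all these chains are therefore no separate evidence. Of the 14 chains with at least 10 counts in every library, 8 were higher and 4 lower.

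**Figure D2:**
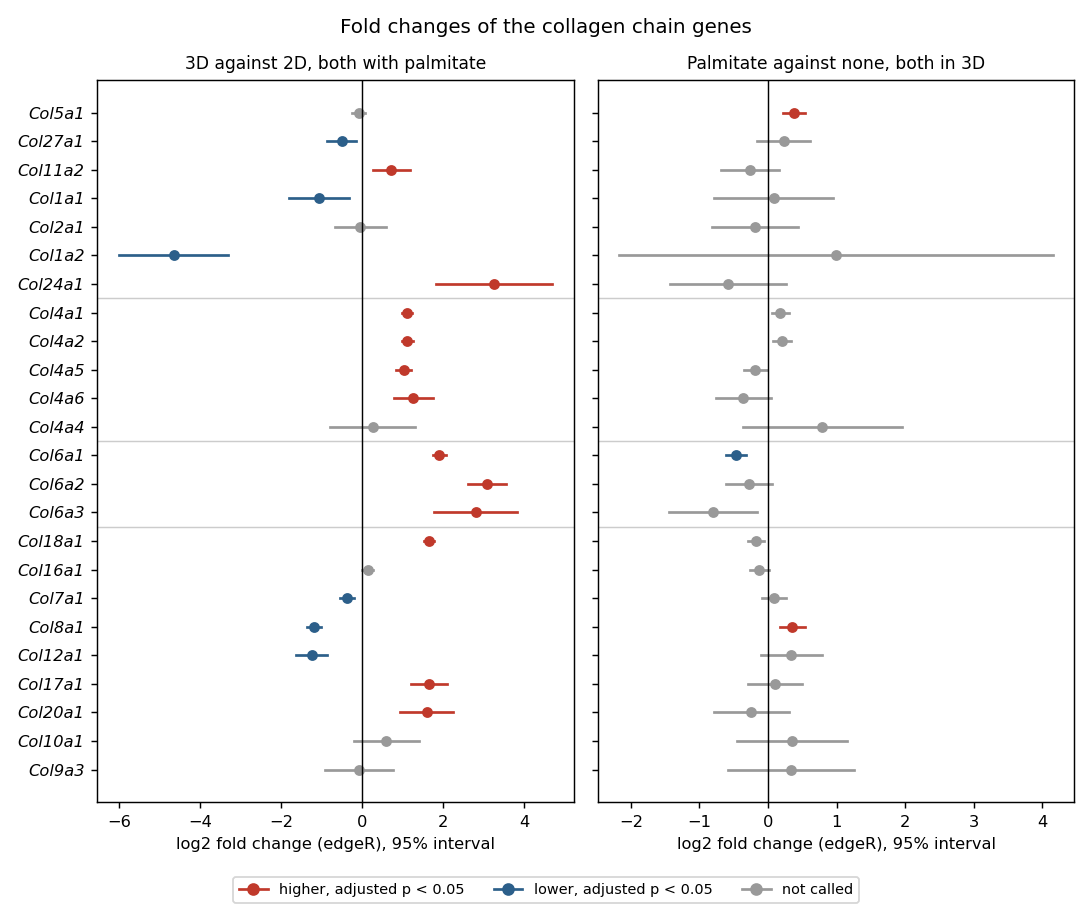
Log2 fold change (edgeR) with its 95% interval for each described chain, in 3D_75 against 2D_75 on the left and 3D_75 against 3D_0 on the right, with different horizontal scales. On the left 12 chains are coloured as higher and 6 as lower, and on the right 2 as higher and 1 as lower.

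Summed over all chains, the level was 668 ± 25.3 CPM per kb in 3D_75 and 351 ± 9.74 in 2D_75 (n = 3 each), a ratio of means of 1.90. The groups did not overlap (exact two-sided permutation test, p = 0.1, the smallest that 3 against 3 libraries allow). The sum in 3D_0 was 664 ± 15.1 CPM per kb and overlapped with that of 3D_75 (exact permutation p = 0.8). The Col4 sum was 328 ± 12.7 in 3D_75 and 152 ± 6.97 CPM per kb in 2D_75. The Col6 sum was 22.1 ± 1.46 against 5.71 ± 0.229 CPM per kb. The fibrillar sum showed no such gap, at 9.74 ± 0.670 in 3D_75 and 10.6 ± 0.464 CPM per kb in 2D_75, and overlapped between the 2 conditions. As a share of the chain sum, fibrillar chains made up 1.37 to 1.52% in 3D_75 and 2.95 to 3.07% in 2D_75.

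**Figure D3:**
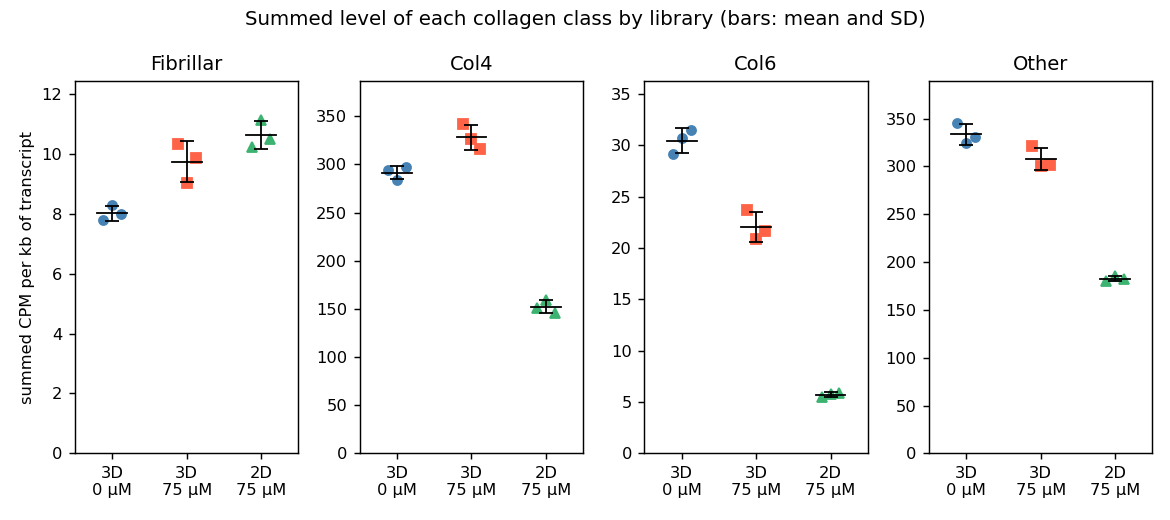
Summed CPM per kb of each collagen class in each library, with the mean and SD of 3 libraries per condition. The Col4, Col6 and other sums are lower in every 2D library than in any 3D library, and the fibrillar sum is not. Within 3D, no class sum overlaps between 3D_0 and 3D_75.

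Of the basement membrane chains, 4 of 5 rose in 3D, by 1.02 to 1.27 on the log2 scale, and Col4a4 did not pass. Corrected for GC content and length the rises were smaller and still called. They were then 0.79 for Col4a1, 0.82 for Col4a2, 0.68 for Col4a5 and 0.94 for Col4a6. Col4a1 stood at 1281, 1235 and 1168 CPM in 3D_75, at 1098, 1050 and 1109 CPM in 3D_0 and at 570, 588 and 551 CPM in 2D_75. Its log2 fold change from 2D_75 to 3D_75 was 1.11 (SE 0.0590, adjusted p = 7.40e-10). Its partner in the common network trimer, Col4a2, stood at 870, 818 and 805 CPM in 3D_75, at 719, 717 and 731 in 3D_0 and at 376, 412 and 362 in 2D_75. Every 3D library was above every 2D library for both chains, and Col4a2 had nearly the same change (log2 fold change 1.12, SE 0.0632, adjusted p = 1.48e-09). Col4a5, a chain of the more specialised networks that is mutated in Alport syndrome, stood at 83.0, 80.8 and 96.3 CPM in 3D_75, at 104, 88.0 and 102 in 3D_0 and at 41.4, 43.6 and 41.8 in 2D_75. It rose by 1.02 on the log2 scale (SE 0.0826, adjusted p = 6.11e-08), with the 3D and 2D libraries apart. Col4a6, its neighbour and partner, was low, with 2.65, 2.13 and 2.60 CPM in 3D_75, 3.54, 2.78 and 3.15 in 3D_0 and 0.744, 1.12 and 1.07 CPM in 2D_75. It too was higher in 3D without overlap (log2 fold change 1.27, SE 0.220, adjusted p = 0.000132). Because Col4a6 met the count rule only with its 3D counts, it was selected towards this difference. Col4a4 and Col4a3 are the kidney-type partners of Col4a5. Col4a4 had 10, 19 and 4 counts in 3D_75, 13, 5 and 5 in 3D_0 and 8, 23 and 9 in 2D_75, and overlapped (log2 fold change 0.26, 95% interval -0.78 to 1.30, or -0.16 after correction for GC content and length). Col4a3 had 10, 2 and 0 counts in 3D_75, 6, 0 and 5 in 3D_0 and 0, 2 and 3 in 2D_75.

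The ratio of Col4a1 to Col4a2 per kb was held within 1.39 to 1.49 in all 9 libraries, while the level of both chains differed by culture. The mean ratio was 1.44 ± 0.0288 in 3D_75, 1.45 ± 0.0519 in 2D_75 and 1.47 ± 0.0325 in 3D_0 (n = 3 each). No difference was detectable between 3D_75 and 2D_75 (exact two-sided permutation p = 0.8) or between 3D_75 and 3D_0 (p = 0.3). The ratio of Col4a5 to Col4a6 ranged from 29.8 to 38.7 in 3D and from 39.5 to 56.5 in 2D. That of Col6a1 to Col6a2 ranged from 18.0 to 23.6 in 3D and from 37.3 to 60.1 in 2D, where Col6a2 rested on 5, 19 and 16 counts. These 2 ratios are given as a description because they include a chain with under 10 counts in a library.

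**Figure D4:**
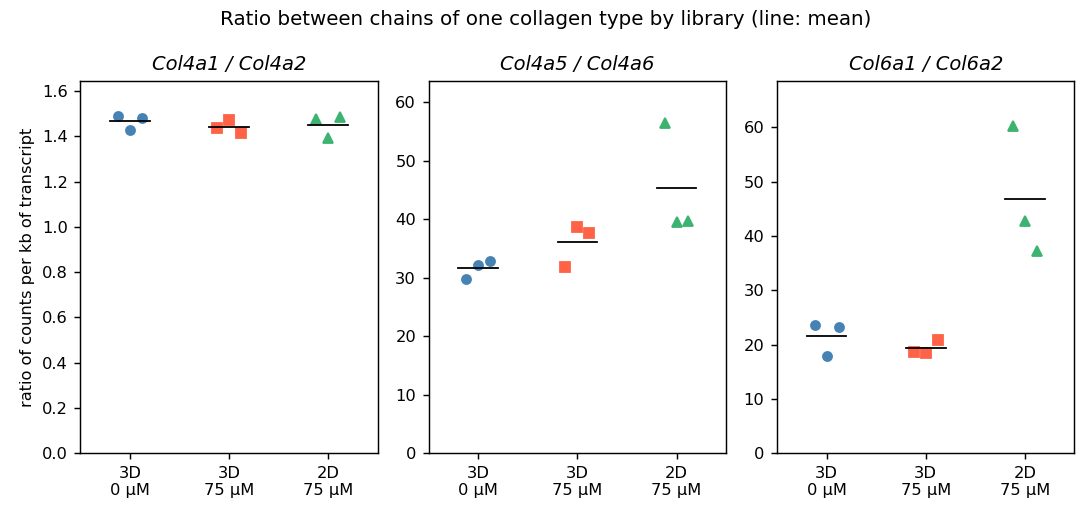
Ratio of CPM per kb between chains of the same collagen type in each library, with the mean as a line. The Col4a1 to Col4a2 ratio lies between 1.39 and 1.49 in all libraries, and the Col6a1 to Col6a2 ratio is higher in the 3 2D libraries than in the 6 3D libraries.

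The 3 described chains of the type VI filament were called higher in 3D. Of these, Col6a2 and Col6a3 were selected towards a difference. They met the count rule only with their 3D counts, those of 3D_0 included. Col6a1 stood at 91.5, 80.5 and 84.4 CPM in 3D_75, at 114, 119 and 123 in 3D_0 and at 21.9, 22.9 and 23.4 CPM in 2D_75. The 3 conditions did not overlap, and from 2D_75 to 3D_75 the chain rose by 1.91 on the log2 scale (SE 0.0718, adjusted p = 1.83e-11). Col6a2 stood at 5.59, 4.94 and 4.59 CPM in 3D_75, at 5.48, 7.50 and 6.02 in 3D_0 and at 0.414, 0.609 and 0.713 in 2D_75. The 3D libraries were all far above those of 2D (log2 fold change 3.08, SE 0.224, adjusted p = 2.03e-08), and the 3D conditions overlapped. Col6a3, the large chain of the same trimer (chr1:90765923-90843971, minus strand), had 26, 12 and 4 counts in 3D_75, 38, 15 and 33 in 3D_0 and 1, 3 and 4 in 2D_75. Scaled to depth, the 42 counts of 3D_75 were 7.37 times the 8 of 2D_75 (95% counting interval 3.42 to 18.2), and the fitted log2 fold change was 2.80 (SE 0.481, adjusted p = 0.000118). Despite the common direction the chains were far from equal in level, since in 3D_75 Col6a1 had 20.8 ± 1.36, Col6a2 1.08 ± 0.109 and Col6a3 a mean under 0.1 CPM per kb. The mural and fibroblast markers Pdgfra and Cspg4 were also higher in 3D_75 than in 2D_75, by 1.69 and 2.67 on the log2 scale, and Cspg4 was lower with palmitate in 3D (log2 fold change -0.54, adjusted p = 0.0431), a call made in 8 of 19 alternatives. Their part in the Col6 values was not tested.

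Fibrillar chains moved in both directions and were low, apart from Col5a1. Col5a1 (chr2:27886425-28039514, plus strand), the regulator of fibril diameter, had 72.9, 64.0 and 71.7 CPM in 3D_75, 51.0, 57.1 and 53.3 in 3D_0 and 69.6, 78.3 and 72.4 in 2D_75. The 3D_75 and 2D_75 values overlapped (log2 fold change -0.08, 95% interval -0.24 to 0.07, adjusted p = 0.331). After correction for a trend over GC content and length it was called lower in 3D, at -0.47. Its exons overlap 2 genes on the other strand, and the strand setting of the counting was not stated. Its own partners were scarce, with 2 counts of Col5a2 in all libraries and 3 to 11 of Col5a3 in each.

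The type I chains were both lower in 3D, from low levels. Col1a2 (chr6:4504814-4541544, plus strand) had 19, 29 and 32 counts in 2D_75, 1, 0 and 1 in 3D_75 and 0, 0 and 1 in 3D_0. Scaled to depth, the 80 counts of 2D_75 were 28.5 times the 2 of 3D_75 (95% counting interval 7.64 to 239). Without overlap between 2D and 3D, this gave the lowest fold change of all chains (fitted log2 value -4.66, SE 0.632, adjusted p = 1.28e-05). Col1a1 (chr11:94936224-94953042, plus strand) fell too (log2 fold change -1.06, SE 0.346, adjusted p = 0.0139), from 2.07, 2.43 and 2.05 CPM in 2D_75 to 1.62, 0.304 and 0.613 CPM in 3D_75, and had 0.850, 1.03 and 1.14 CPM in 3D_0. The 3D_75 libraries were spread widely, and the call was lost without replicate 2 of 3D_75 or without replicate 2 of 2D_75, with log2 values from -2.42 to -0.68 when 1 library was left out.

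Of the minor fibrillar chains, Col24a1 (chr3:145292472-145552011, plus strand), a chain known from developing bone, went the other way. It had 17, 7 and 6 counts in 3D_75, 15, 14 and 24 in 3D_0 and 1, 0 and 3 in 2D_75. The 30 counts of 3D_75 were 10.5 times the 4 of 2D_75 after scaling (95% counting interval 3.71 to 41.1), with a fitted log2 fold change of 3.26 (SE 0.669, adjusted p = 0.000548). Col11a2, a cartilage chain, had 3.42, 3.04 and 2.60 CPM in 3D_75, 4.63, 2.91 and 3.63 in 3D_0 and 1.98, 2.15 and 1.56 in 2D_75. It was higher in 3D without overlap (log2 fold change 0.72, SE 0.218, adjusted p = 0.00861), but lost the call without replicate 1 of 3D_75 and after correction for GC content and length (0.40, adjusted p = 0.109). Col27a1, also of cartilage, was lower in 3D without overlap, with 3.39, 3.80 and 3.22 CPM in 3D_75, 2.98, 3.68 and 2.33 in 3D_0 and 5.29, 4.81 and 4.86 in 2D_75. Its log2 fold change was -0.50 (SE 0.165, adjusted p = 0.0140), which did not pass without replicate 1 of 3D_75 (adjusted p = 0.0625) and was -0.88 after the same correction. Col2a1, the main chain of cartilage, overlapped between all conditions (log2 fold change -0.05, 95% interval -0.67 to 0.58).

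Among the other chains, those tied to the epithelial surface did not move together. Col18a1 had 1301, 1233 and 1226 CPM in 3D_75, 1470, 1363 and 1401 in 3D_0 and 399, 405 and 400 CPM in 2D_75. The narrow 2D values lay far under all 3D values (log2 fold change 1.64, SE 0.0573, adjusted p = 7.97e-12, or 1.40 after correction for GC content and length). Col17a1 (chr19:47646344-47692094, minus strand) had 6.85, 4.56 and 4.44 CPM in 3D_75, 6.05, 4.65 and 4.88 in 3D_0 and 1.74, 1.57 and 2.09 in 2D_75. It rose without overlap by 1.65 on the log2 scale (SE 0.210, adjusted p = 6.91e-06). Col7a1 (chr9:108953586-108984875, plus strand), in contrast, was lower in 3D, with 282, 241 and 241 CPM in 3D_75, 239, 258 and 225 in 3D_0 and 297, 334 and 357 in 2D_75. Its change was small (log2 fold change -0.37, SE 0.0837, adjusted p = 0.00123), and 2D lay above all 3D libraries. Corrected for GC content and length it was -0.77.

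Col8a1 and Col12a1 were the other chains with higher RNA in the monolayer. Col8a1 (chr16:57624258-57754737, minus strand), a short-chain collagen of vessel walls and of the membrane under corneal endothelium, had 218, 219 and 188 CPM in 2D_75, 87.9, 86.4 and 103 in 3D_75 and 72.0, 68.2 and 75.5 in 3D_0. The conditions did not overlap, and from 2D_75 to 3D_75 it fell by 1.18 on the log2 scale (SE 0.0828, adjusted p = 1.38e-08). Col12a1 (chr9:79598991-79718831, minus strand), which binds to fibril surfaces, had 16.6, 17.8 and 10.6 CPM in 2D_75, 5.93, 7.22 and 5.82 in 3D_75 and 5.34, 4.72 and 4.88 in 3D_0. It was lower in 3D (log2 fold change -1.24, SE 0.181, adjusted p = 2.54e-05), with 1 lower library among those of 2D that still exceeded all 3D libraries. Col20a1, of the same fibril-associated family, was instead higher in 3D, with 3.90, 2.73 and 2.14 CPM in 3D_75, 5.24, 3.30 and 2.66 in 3D_0 and 1.24, 0.961 and 1.07 in 2D_75. It did not overlap with 2D (log2 fold change 1.60, SE 0.305, adjusted p = 0.000303), and its exons overlap those of BX649560.1 on the same strand. Col16a1 (chr4:130047840-130099283, plus strand), the highest of that family, hardly differed, with 195, 181 and 175 CPM in 3D_75, 207, 192 and 204 in 3D_0 and 163, 165 and 173 in 2D_75. It lay above 2D_75 in each 3D_75 library but did not pass (log2 fold change 0.14, 95% interval 0.00 to 0.27, adjusted p = 0.0638). Its sign turned to -0.08 after correction for GC content and length. Col9a3 and Col10a1, cartilage chains with means under 1 CPM, were not called, with log2 fold changes of -0.09 and 0.60.

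Palmitate, compared within 3D, was followed by smaller and fewer differences. Of the 24 described chains 2 were higher and 1 lower in 3D_75 than in 3D_0, where 1.38% of all genes tested were higher and 0.811% lower. The comparison shares the 3D_75 libraries with the one above. The median log2 fold change of the chains was 0.08, and 21 chains did not pass. Without adjustment, 4 chains were higher and 4 lower at p under 0.05, as were 2170 of the 12575 genes tested in either direction.

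Col6a1 fell with palmitate by 0.47 on the log2 scale (SE 0.0656, adjusted p = 0.00196). All 3 values of 3D_75 (91.5, 80.5 and 84.4 CPM) lay under those of 3D_0 (114, 119 and 123 CPM), and the chain was called in each of 19 alternatives, with log2 values from -0.53 to -0.43. Its change is below the minimum of 0.5 that a further alternative required, and no chain was called for palmitate there. Col6a2 and Col6a3 had log2 values of -0.28 (95% interval -0.61 to 0.06) and -0.80 (-1.44 to -0.16), which did not pass with adjusted p-values of 0.388 and 0.186.

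Col5a1 and Col8a1 rose. Col5a1 went from 51.0 to 57.1 CPM in 3D_0 up to 64.0 to 72.9 CPM in 3D_75 (log2 fold change 0.37, SE 0.0747, adjusted p = 0.0215). Col8a1 went from 68.2 to 75.5 CPM up to 86.4 to 103 CPM (log2 fold change 0.35, SE 0.0842, adjusted p = 0.0451). Neither overlapped between the conditions. Col5a1 was called in 13 of the same 19 alternatives and Col8a1 in 9, and both calls were lost when the 2 groups were fitted alone or any library of 3D_0 was left out.

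Of the abundant chains, Col4a1 and Col4a2 had log2 values of 0.18 (95% interval 0.05 to 0.30, adjusted p = 0.129) and 0.20 (0.07 to 0.34, adjusted p = 0.109), and no library of 3D_75 was below any of 3D_0 in either. Col18a1 had a log2 value of -0.17 (-0.29 to -0.05, adjusted p = 0.129), with all 3D_75 libraries under those of 3D_0. Without replicate 3 of 3D_75, the smallest library, Col4a1 and Col4a2 were called higher and Col4a5 lower. For the low chains the intervals were wide, such as -2.17 to 4.15 for Col1a2.

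The genes that modify, export, crosslink or bind collagen were given by lists. Of 60 such genes 41 were tested, of which 24 were higher and 10 lower in 3D_75 than in 2D_75, beside the 34.5% higher and 33.9% lower of all genes tested. Their median log2 fold change was 0.32. The list counts that follow are to be read against the same shares.

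Of the hydroxylation and folding genes, 9 were higher and 6 lower of 18, the latter near the share of all genes. The prolyl 4-hydroxylase subunits did not move together. P4ha1, a catalytic subunit, had 164, 168 and 174 CPM in 3D_75, 159, 138 and 169 in 3D_0 and 109, 113 and 103 in 2D_75. It rose in 3D without overlap (log2 fold change 0.64, SE 0.0748, adjusted p = 2.95e-06). P4hb, the subunit that all forms share, had 983, 951 and 951 CPM in 3D_75, 917, 870 and 886 in 3D_0 and 701, 701 and 712 in 2D_75. It too was higher in each 3D library (0.45, SE 0.0535, adjusted p = 3.54e-06), whereas P4ha2, another catalytic subunit, fell by 0.68 on the log2 scale (adjusted p = 2.97e-05). Crtap of the prolyl 3-hydroxylase complex had 110, 95.3 and 80.7 CPM in 3D_75, 89.1, 81.9 and 79.8 in 3D_0 and 54.8, 57.5 and 58.2 in 2D_75, and rose without overlap (0.76, SE 0.0917, adjusted p = 3.98e-06). The P3h genes of the list did not all follow it. P3h1 and P3h3 fell (-0.60 and -0.31, adjusted p = 0.000345 and 0.0241) and P3h2 did not pass (-0.25). P3h4 rose (0.44, adjusted p = 0.0385), though its 3D_75 and 2D_75 libraries overlapped. Ppib rose by 0.25 (adjusted p = 0.00640). Plod2, a lysyl hydroxylase, and the collagen chaperone Serpinh1 were lower, at -0.66 and -0.50 (adjusted p = 4.26e-06 and 4.71e-06). Both were picked after their values were seen.

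Export and propeptide cutting genes were higher in 5 and lower in 2 of 7. The enhancer of procollagen cutting Pcolce had 97.5, 89.9 and 77.5 CPM in 3D_75, 98.6, 90.3 and 97.3 in 3D_0 and 32.3, 34.8 and 39.7 in 2D_75 (log2 fold change 1.32). The C-proteinase Bmp1 had 598, 535 and 511 CPM in 3D_75, 582, 648 and 601 in 3D_0 and 263, 275 and 282 in 2D_75 (1.01). Both were far higher in every 3D library. The N-proteinase Adamts14 had 40.4, 38.5 and 38.7 CPM in 3D_75, 36.4, 36.5 and 36.0 in 3D_0 and 31.2, 33.0 and 33.0 in 2D_75 (0.28). Its call, and that of Pcolce2, were lost after correction for GC content and length (0.03, adjusted p = 0.635, and 0.09, adjusted p = 0.352).

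Of the crosslinking genes 3 of 5 were higher and 1 lower. The lysyl oxidase relative Loxl3 had 48.8, 45.7 and 40.3 CPM in 3D_75, 54.1, 51.7 and 52.4 in 3D_0 and 16.0, 16.2 and 18.4 in 2D_75 (log2 fold change 1.43). The transglutaminase Tgm2 had 142, 127 and 134 CPM in 3D_75, 137, 125 and 138 in 3D_0 and 65.3, 65.4 and 62.3 in 2D_75 (1.07). Neither overlapped between 3D and 2D. Pxdn, the peroxidase that crosslinks type IV, had 256, 252 and 282 CPM in 3D_75, 251, 268 and 280 in 3D_0 and 148, 161 and 141 in 2D_75 (0.81, or 0.47 after correction for GC content and length). Loxl1 was the lower gene, with 16, 38 and 30 counts in 2D_75, 2, 0 and 1 in 3D_75 and 1, 2 and 2 in 3D_0. The 3 counts of 3D_75 were 0.0501 times the 84 of 2D_75 after scaling (95% counting interval 0.0101 to 0.152). It passed the filter through its 2D counts alone and was thus selected towards a difference in this direction.

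The collagen receptor Itga1, which prefers type IV, had 50.6, 68.0 and 81.8 CPM in 3D_75, 79.2, 74.0 and 89.7 in 3D_0 and 2.56, 2.66 and 2.14 in 2D_75. Its log2 fold change of 4.72 (SE 0.186, adjusted p = 2.98e-11) was the highest of the 8 receptor and uptake genes tested, of which 5 were higher and 1 lower. The lower one, Pepd, lost its call after correction for GC content and length (adjusted p = 0.159). Itga2, which prefers fibrillar collagens, had 186, 232 and 276 CPM in 3D_75, 229, 249 and 286 in 3D_0 and 72.4, 82.0 and 53.8 in 2D_75 (1.73). The uptake receptor Mrc2 was low, with 2.54, 2.05 and 3.52 CPM in 3D_75, 2.65, 1.68 and 2.77 in 3D_0 and 0.248, 0.801 and 0.713 in 2D_75 (1.95). All of these were higher in every 3D library than in 2D.

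Of the small fibril-binding proteoglycans 3 of 10 were tested and 2 were higher. Podn had 41, 26 and 8 counts in 3D_75, 35, 33 and 47 in 3D_0 and 0, 7 and 2 in 2D_75, and its 75 counts of 3D_75 were 11.7 times the 9 of 2D_75 after scaling (95% counting interval 5.84 to 26.6). Prelp had 20, 6 and 9 counts in 3D_75, 12, 14 and 18 in 3D_0 and 0 in each 2D_75 library, at least 16.4-fold higher than the floor of 3 counts over the 2D group. Both passed through their 3D counts, those of 3D_0 included, and were thus selected towards a difference. Lum and Fmod had no count in any library.

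With palmitate in 3D, 1 of the 41 genes was higher and none lower, where 1.38% of all genes were higher and 0.811% lower. P4ha2 rose from 12.2, 10.6 and 9.87 CPM in 3D_0 to 15.8, 15.8 and 15.5 CPM in 3D_75 (log2 fold change 0.53, SE 0.109, adjusted p = 0.0241), and had 22.1, 26.3 and 26.4 CPM in 2D_75. It was called in 12 of 19 alternatives. None was lower by edgeR or by DESeq2. At an unadjusted p under 0.05, 8 were higher and 4 lower of the 41, beside 2170 of all 12575 genes tested in either direction.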

How the data were processed

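9 libraries of 4T1 cells were sequenced with 50 bp single-end reads after poly(A) selection with a stranded kit. Raw gene counts are what the authors deposited, made by trimming with fastq-mcf, checking with FastQC 0.11.9, aligning to GRCm38 with HISAT2 2.1.0 and counting with HTSeq. The annotation release and strand setting of the counting are not given in the sources used here, so reads of overlapping or antisense genes may have been lost or assigned to either gene. Groups were taken from the sample titles.

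All genes were fitted with edgeR 4.0.16 in R 4.3.3 (TMM scaling, filterByExpr, quasi-likelihood test over all 9 libraries with group as the only term). Of 24421 genes 12575 were tested, all 24 described chains among them. P-values were adjusted over all genes tested by the Benjamini-Hochberg method, and an adjusted p under 0.05 was called. Of 3D_75 against 2D_75 and of 3D_75 against 3D_0, 8594 and 275 genes were called. Standard errors were derived from the log2 fold change and its F statistic, and intervals are at 95%. CPM are TMM-scaled. Lengths, positions and exons came from GENCODE vM21 on GRCm38, by gene symbol, which matched 23376 table genes directly and 645 by a synonym. Counting intervals are exact conditional binomial intervals of scaled counts and cover counting error only.

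The members, gene lists and tests were chosen with earlier results of these data known. Values in every library are given for the 3 highest chains of a class, its 4 called chains with the largest 3D against 2D change, chains called for palmitate and trimer partners, and from each assembly list the 3 called genes with the smallest p. The scripts were tested on simulated data. Alternatives were RLE scaling, library size only, no filter, 2 other filters, the 2 groups alone, a replicate block, DESeq2 1.42.0, a minimum absolute log2 fold change of 0.5, removal of a GC and length trend (a spline with 4 degrees of freedom), the Rn45s share as covariate, and leaving out each library.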

Additional observations from a re-analysis of the deposited data

How the results depend on the processing

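Of the chains in 3D_75 against 2D_75, no call changed its direction in any of the 20 alternatives, and the counts of 12 higher and 6 lower stayed within 1.5 times. With at least 10 counts in every library 8 and 4 of 14 chains were called, a count without the share of all genes under that filter. Calls were lost for Col11a2, Col27a1 and Col1a1 under the settings named beside them, and Col7a1 fell short of a minimum absolute log2 fold change of 0.5, which left 5 lower. Among the assembly genes, that minimum left 6 of the 10 lower. Their calls for Adamts14, Pcolce2 and Pepd were lost after correction for GC content and length. The least stable calls were those of Pcolce2, P3h4, Ctage5 and Pepd, made in 8, 10, 13 and 13 of 19 alternatives. Both Pcolce2 and P3h4 were not called with DESeq2, a replicate block or the Rn45s covariate. An exact test of 3 against 3 libraries cannot reach 0.05, so the ratio of Col4a1 to Col4a2 is read by its range.

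The palmitate calls were less stable. The count of 2 higher chains became 1 with scaling by library size or the Rn45s share as covariate, and 0 with the 2 groups alone or with the minimum change. It became 3 with DESeq2, which added Col4a2, and 4 after correction for GC content and length, which added Col4a1 and Col4a2. Leaving out a library gave 0 to 4, with 0 without any of the 3D_0 libraries and 4 without replicate 3 of 3D_75. The count of 1 lower chain became 2 with DESeq2 (Col18a1 added, 17 of 24 chains given an adjusted p), 0 with the minimum change, and 1 to 2 with a library left out, 2 without replicate 3 of 3D_75 (Col4a5 added). The 1 higher assembly gene became 3 without a filter, 0 with the 2 groups alone or the Rn45s covariate, 4 after that correction, and 0 to 5 with a library left out, 5 without replicate 3 of 3D_75. The 0 lower assembly genes became 1 without a filter (Itga1), 2 after the correction (Bmp1 and Itga1), and 0 to 1 with a library left out, 1 without that same library. The cause was not tested.

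With a replicate block, 0 chains and 0 assembly genes were called higher with palmitate, Col6a1 stayed lower, and no chain call of 3D against 2D changed. In that fit 111 genes in all were called for palmitate, against 275 in the main fit. Libraries of the same number did not deviate together (correlations of -0.24 to 0.15 over 9 pairs, median -0.05, against a median of 0.03 over 18 other pairs), and the labels do not say that a number marks a shared day or batch.

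With 3 libraries a group and 6595514 counts in the smallest, chains with few counts have intervals too wide to show a palmitate effect, and absence of a call says nothing of equality.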
